A study of Mus musculus with 12 samples.

Results

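The cell cycle genes described here are 38 mouse genes whose products copy and separate the chromosomes of dividing cells: 17 genes of DNA replication and of the entry into S phase, and 21 genes of mitosis. They were chosen by name and not by a measured value, but with earlier results of these data known. Their transcripts were read in duodenum samples of male mice on 12 one-colour (Cy3) Agilent arrays, among 26107 features in all (15580 of them named genes). Of the 38 genes, 37 passed the filter on dim probes and each of these 37 was well above background on all 12 arrays. The exception was Ccne2, a cyclin E gene, which was well above background on 3 arrays and has no fold change here.

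The mice were 7 weeks old, and their samples form 4 groups of 3. Akp3-/- mice (IAP knockout, KO), which lack the gene of the duodenal form of intestinal alkaline phosphatase, received either the peptide IIAEK or its vehicle, and so did wild-type (WT) mice. Oral IIAEK was dosed daily at 600 mg per kg of body weight over 14 days. Vehicle was a 5 g/L solution of the sodium salt of carboxymethylcellulose, which the IIAEK mice received too, and all mice fasted for 8 h before the duodenum was taken. How the knockout was made, its strain background and the strain of the wild type are not given in the sources used here. Some source labels of the IIAEK groups give the dosing time in weeks where their titles and the series design give 14 days, which is used here. The peptide is described in the labels as lowering cholesterol, so the arrays ask what it does to duodenal transcripts with and without this phosphatase.

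In the small intestine, cells divide in the crypts, where stem cells and their transit-amplifying daughters pass through the cycle, and the villus epithelium that covers most of the tissue no longer divides. Replication genes are switched on at the passage from G1 to S phase by E2F transcription factors once cyclin-dependent kinases have inactivated the retinoblastoma protein. Mitosis genes follow in G2, when the MuvB complex together with B-Myb and FoxM1 acts at the cell cycle genes homology region (CHR) of their promoters, often beside CCAAT boxes bound by NF-Y. In RNA of a whole duodenum, fewer dividing cells and less of a transcript per dividing cell cannot be told apart.

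Promoters are shown because these types of promoter mark the replication and the mitosis genes. RefSeq promoters (assembly GRCm38.p6, each 300 bases long and ending shortly after the start) were found for 14 of the 17 replication genes and 15 of the 21 mitosis genes. The genes without an entry are Mcm4, Gins2, Ccne2, Ccna2, Cdc25c, Aurkb, Tpx2, Kif20a and Foxm1. The motifs searched, on both strands, were the E2F motif in the form TTCCCGC or, as its second form, TTCGCGC or, as its next form, TTGCCGC or, as its last form, TTGGCGC. The CHR motif was TTTGAA or, as its other form, TTCGAA. The third motif was CCAAT. Matches may overlap one another. An E2F match was present in 10 of 15 replication promoters (66.67%; Mcm7 has 2 promoters), in 3 of 15 mitosis promoters (20%) and in 9.574% of all 32851 promoters of the table. A CHR match was present in 2 of 15 replication promoters (13.33%), in 12 of 15 mitosis promoters (80%) and in 19.23% of all promoters. CCAAT was found in 10 of 15 replication promoters (66.67%), in 14 of 15 mitosis promoters (93.33%) and in 37.41% of all promoters. The 3 promoters of each class with the most matches follow (Mcm5 had as many as Mcm3, 6, and is not printed), 5′ to 3′ on the gene's strand, with every match to any of the 3 motifs in capitals.
Mcm6, chr1:128359656-128359955, minus strand: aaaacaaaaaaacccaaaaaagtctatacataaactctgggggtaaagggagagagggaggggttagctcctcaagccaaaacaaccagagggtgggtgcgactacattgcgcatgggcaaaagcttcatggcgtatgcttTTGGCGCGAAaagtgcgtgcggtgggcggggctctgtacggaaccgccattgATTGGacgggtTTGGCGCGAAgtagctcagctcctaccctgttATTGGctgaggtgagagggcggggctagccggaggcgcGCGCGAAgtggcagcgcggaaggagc
Mcm7, chr5:138171834-138172133, minus strand: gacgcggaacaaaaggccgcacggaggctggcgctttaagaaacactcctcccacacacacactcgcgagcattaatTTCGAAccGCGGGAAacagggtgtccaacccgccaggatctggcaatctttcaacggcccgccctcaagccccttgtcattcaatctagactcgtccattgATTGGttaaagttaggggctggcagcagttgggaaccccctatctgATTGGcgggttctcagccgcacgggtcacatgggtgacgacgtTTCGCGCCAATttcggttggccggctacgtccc
Mcm3, chr1:20820263-20820562, minus strand: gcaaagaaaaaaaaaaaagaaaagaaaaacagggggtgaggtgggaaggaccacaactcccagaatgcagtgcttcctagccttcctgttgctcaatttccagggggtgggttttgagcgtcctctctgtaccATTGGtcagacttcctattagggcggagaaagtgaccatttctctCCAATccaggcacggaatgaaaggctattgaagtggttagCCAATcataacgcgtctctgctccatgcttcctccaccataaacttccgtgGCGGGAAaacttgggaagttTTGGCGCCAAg
Top2a, chr11:99024140-99024439, minus strand: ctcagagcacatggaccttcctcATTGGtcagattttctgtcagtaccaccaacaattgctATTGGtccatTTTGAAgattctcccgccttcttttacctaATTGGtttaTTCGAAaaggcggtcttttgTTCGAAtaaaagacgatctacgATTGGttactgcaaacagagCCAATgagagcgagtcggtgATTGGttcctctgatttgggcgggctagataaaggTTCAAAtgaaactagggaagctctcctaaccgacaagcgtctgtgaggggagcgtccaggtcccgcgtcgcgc
Cdk1, chr10:69352863-69353162, minus strand: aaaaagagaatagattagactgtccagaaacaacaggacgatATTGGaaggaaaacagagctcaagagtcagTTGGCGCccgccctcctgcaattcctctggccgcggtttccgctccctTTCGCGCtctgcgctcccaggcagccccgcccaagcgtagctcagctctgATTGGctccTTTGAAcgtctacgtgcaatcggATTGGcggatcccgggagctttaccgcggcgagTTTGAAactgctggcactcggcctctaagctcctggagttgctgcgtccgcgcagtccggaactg
Ube2c, chr2:164769679-164769978, plus strand: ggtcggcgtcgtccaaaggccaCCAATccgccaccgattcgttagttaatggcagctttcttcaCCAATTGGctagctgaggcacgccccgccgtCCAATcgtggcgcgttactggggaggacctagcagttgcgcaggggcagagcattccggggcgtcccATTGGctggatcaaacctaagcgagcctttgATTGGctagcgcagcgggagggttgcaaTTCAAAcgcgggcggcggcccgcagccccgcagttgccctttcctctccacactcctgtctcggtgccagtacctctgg
The Mcm6 promoter held 5 E2F matches and no CHR match, whereas the Top2a promoter held 4 CHR matches, 6 CCAAT matches and no E2F match. Cdk1 had both kinds, with 2 E2F and 2 CHR matches. A match is a run of letters and not a measured binding site.

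The arrays and the tissue pieces were checked first. The knocked-out gene Akp3 had levels of -4.64, -4.42 and -4.90 in KO IIAEK, -4.01, -3.80 and -4.23 in KO vehicle, 1.29, 1.05 and 2.72 in WT IIAEK and 2.27, 2.04 and 1.70 in WT vehicle. The probe used was still well above background on 1 of 3 KO IIAEK and 2 of 3 KO vehicle arrays. The other Akp3 probe was so on 6 arrays in all, with KO minus WT differences of -7.89 under vehicle and -7.83 under IIAEK. A level here is the log2 processed intensity minus the 75th percentile of the same array, so that 0 is the array's 75th percentile, and levels of different probes are not compared. All 15 villus enterocyte markers were well above background on all 12 arrays. Between 55.9% and 64.0% of probes per array were well above background, the 75th percentile lay between 195 and 465 intensity units, and 0 spots were saturated. The arrays lay on 2 slides, 7 on slide 1 and 5 on slide 2, and each slide had its own scan.

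Some arrays stood apart. KO IIAEK 3 had the highest of the 12 levels for 21 of the 37 cell cycle genes, against 19.4% of all features, and the lowest for 3 (Tyms, Pcna and Bub1), against 25% of all features. WT IIAEK 2 had the lowest level for 17 of the 37, against 9.66% of all features. The tissue pieces also differed in content, seen in marker scores (the mean log2 deviation of a list's genes from their 12-array means). The stomach mucous score, over 9 genes such as gastrokines, lay between 2.58 and 4.24 on 6 arrays (KO IIAEK 3, KO vehicle 1, WT IIAEK 3 and all 3 of WT vehicle) and between -3.71 and -2.47 on the other 6. The pancreas score was -5.56 on WT vehicle 1 and at least -0.89 elsewhere, and the B-cell score was 2.60 on WT vehicle 1 and 1.98 on WT vehicle 2, with all other arrays at 0.38 or lower. Results are therefore given with and without KO IIAEK 3, and by slide.

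**Figure D1:**
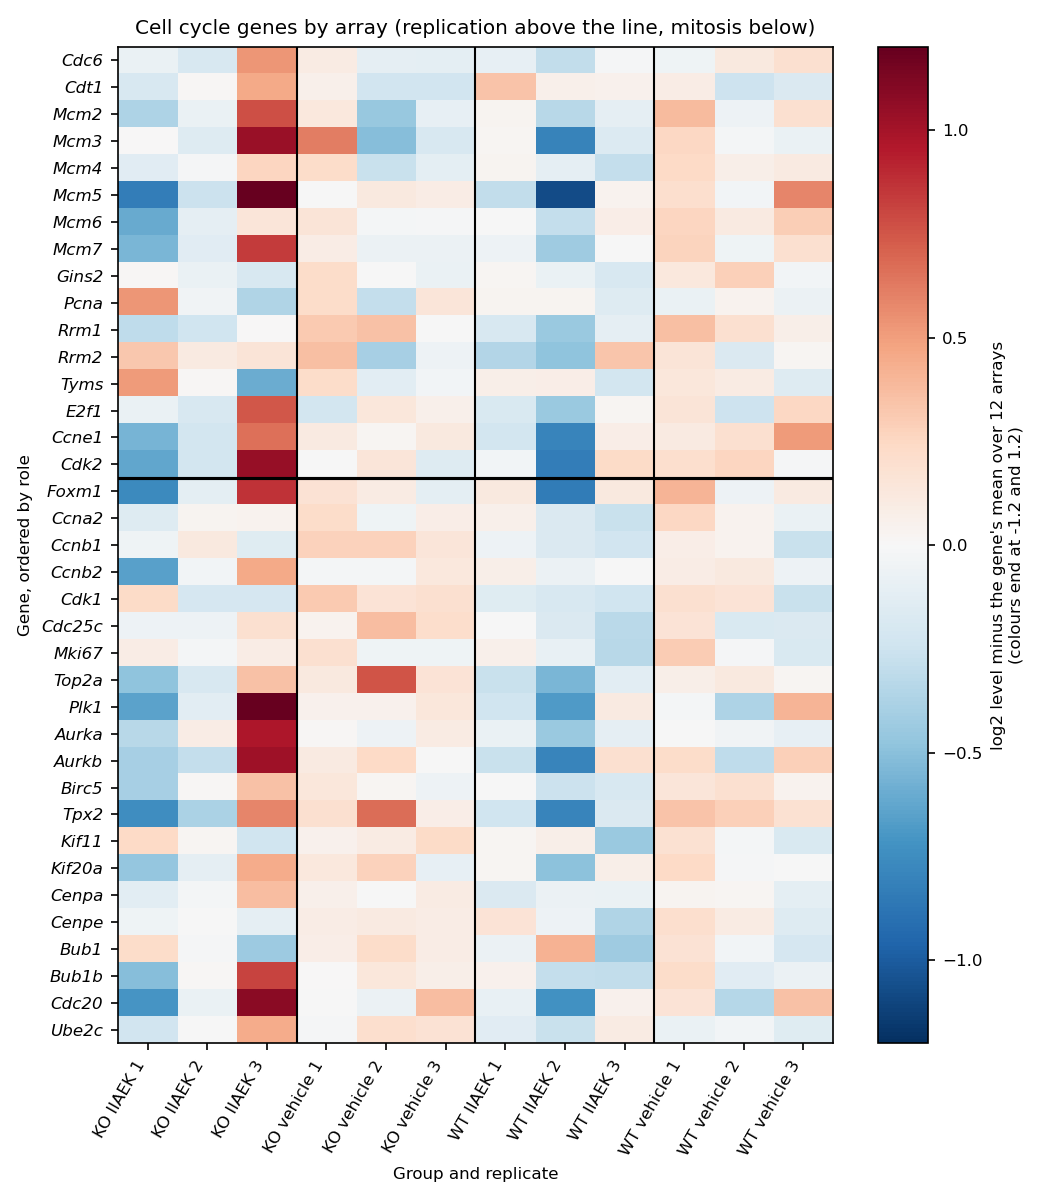
Level of each of the 37 measured cell cycle genes (rows, by role; replication above the line, mitosis below) on each array (columns), as log2 level minus the gene's mean over the 12 arrays; colours end at -1.2 and 1.2. KO IIAEK 3 is the reddest column, with the highest level of 21 genes, and WT IIAEK 2 the bluest, with the lowest level of 17.

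The spread among the genes was uneven. From the lowest to the highest array the levels of a member spanned a median of 0.90 log2 units, against 0.98 for all features, from 0.48 for Gins2, a subunit of the replicative helicase, to 2.54 for Mcm5, a subunit of its MCM ring. The proliferation marker Mki67 had levels of 3.60, 3.49 and 3.60 in KO IIAEK, 3.70, 3.46 and 3.46 in KO vehicle, 3.58, 3.42 and 3.18 in WT IIAEK and 3.82, 3.50 and 3.33 in WT vehicle. All 4 groups overlapped. Pcna, the sliding clamp of DNA polymerase, had levels of 5.29, 4.72 and 4.40 in KO IIAEK, 4.98, 4.47 and 4.90 in KO vehicle, 4.80, 4.79 and 4.61 in WT IIAEK and 4.68, 4.80 and 4.69 in WT vehicle. Its 2 extreme arrays were both KO IIAEK, and the 4 group means lay between 4.72 and 4.80.

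On KO IIAEK 3 the MCM ring genes other than Mcm6, the mitotic kinases Plk1, Aurka and Aurkb, and E2f1, Ccne1 and Cdk2 of G1/S control all had their highest level. Mcm5 had a level of 2.28 there, against -0.26 to 1.40 on the other 11 arrays. Plk1, the polo-like kinase of mitotic entry, had 2.29 against 0.29 to 1.37, and Cdc20, the activator of the anaphase-promoting complex, had 2.89 against 1.08 to 2.17. Aurka, a spindle pole kinase, had 2.21 against 0.79 to 1.34, and Cdk2, the partner of cyclin E, had -1.13 against -3.01 to -1.93. These 5 were above every other array, while Tyms, which makes thymidylate for DNA synthesis, had 1.97 against 2.35 to 3.08 and so lay below every other array. On the same array the villus enterocyte score was the lowest of the 12 (-0.53, against -0.19 to 0.33), and the crypt stem score (0.37, against -0.37 to 0.29), the smooth muscle score (0.98, against -0.77 to 0.38) and the fibroblast and endothelium score (0.65, against -0.31 to 0.08) were the highest. Their part in the high levels was not tested.

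Over the replication genes, the array scores were -0.18, -0.11 and 0.44 in KO IIAEK, 0.16, -0.11 and -0.05 in KO vehicle, -0.06, -0.39 and -0.03 in WT IIAEK and 0.17, 0.03 and 0.12 in WT vehicle. Over the mitosis genes they were -0.29, -0.07 and 0.39 in KO IIAEK, 0.10, 0.16 and 0.10 in KO vehicle, -0.06, -0.32 and -0.14 in WT IIAEK and 0.16, -0.02 and -0.03 in WT vehicle. WT IIAEK lay below WT vehicle on both scores without overlap. KO IIAEK had 2 arrays below and 1 array above all arrays of KO vehicle on both scores. On the replication score, however, KO IIAEK 2 (-0.111) and KO vehicle 2 (-0.106) were almost equal.

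**Figure D2:**
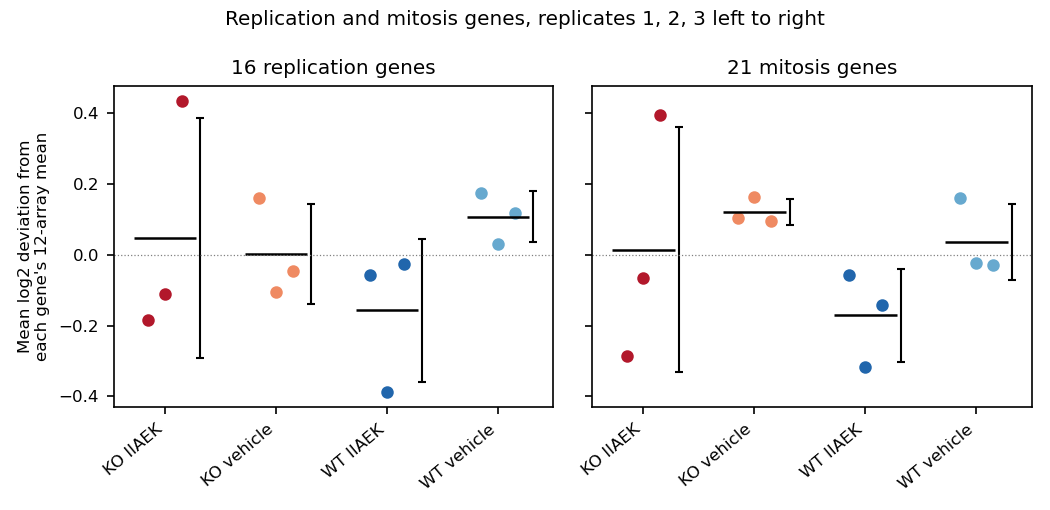
Score of each array (points, replicates 1 to 3 left to right; line, group mean; bar, SD, n = 3) over the 16 measured replication genes and the 21 mitosis genes, as the mean log2 deviation from each gene's 12-array mean. The 3 WT IIAEK arrays lie below the 3 WT vehicle arrays in both panels, and KO IIAEK has the widest spread, with replicate 3 at 0.44 and 0.39.

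In wild-type mice, most cell cycle genes had lower mean levels under IIAEK than under vehicle, by small amounts and with no gene past the test. The fold change was below 0 for 35 of 37 genes, against 43.7% of all features, and its median was -0.22, against 0.03 over all features. It was below 0 for 14 of 16 replication genes (median -0.27) and for 21 of 21 mitosis genes (median -0.18). Cdt1, which loads the MCM ring together with Cdc6, and Pcna were the 2 genes with a fold change above 0 (0.26 and 0.0094 on the log2 scale), against 56.3% of all features. By limma with Benjamini-Hochberg adjustment over all 26107 features, 0 of 37 genes were called (0% of all features called). The smallest adjusted p was 0.999, and 1 gene had an unadjusted p under 0.05 on the lower side (1.44% of all features) and 0 on the higher side (1.7%).

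That gene was Rrm1, the large subunit of ribonucleotide reductase, which makes the deoxynucleotides for DNA synthesis. Its levels were 1.46, 1.21 and 1.54 in WT IIAEK, against 2.02, 1.84 and 1.72 in WT vehicle. Every IIAEK array lay below every vehicle array. The log2 fold change was -0.46 ± 0.15 (SE; 95% confidence interval -0.79 to -0.12), a ratio of 0.73, with adjusted p = 0.999 by limma. The small subunit Rrm2 did not share this: its levels were 2.45, 2.32 and 3.13 in WT IIAEK, against 2.96, 2.63 and 2.83 in WT vehicle, with overlap of the groups.

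For 7 of the 37 genes all 3 IIAEK arrays lay below all 3 vehicle arrays (3.69% of all features), and for 0 they lay above (5.58% of all features). Besides Rrm1 these were Mcm4, Mcm6 and Ccne1 of replication, and Top2a, Tpx2 and Birc5 of mitosis. Mcm4 and Mcm6 are subunits of the MCM ring. Mcm4 had 2.11, 1.97 and 1.80 in WT IIAEK, against 2.32, 2.15 and 2.19 in WT vehicle (log2 fold change -0.26 ± 0.16, SE). For Mcm6 the levels were 3.76, 3.47 and 3.84 in WT IIAEK, against 4.01, 3.87 and 4.05 in WT vehicle (-0.29 ± 0.18, SE). In both genes the gap between the nearest arrays of the groups was smaller than the standard error. Ccne1, cyclin E1, which with Cdk2 starts S phase, had -0.07, -0.64 and 0.23 in WT IIAEK, against 0.26, 0.34 and 0.66 in WT vehicle (-0.58 ± 0.30, SE).

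Among mitosis genes, Tpx2 had the lowest fold change. Tpx2, which activates Aurora A and nucleates spindle microtubules, had levels of -1.08, -1.62 and -1.01 in WT IIAEK, against -0.50, -0.55 and -0.65 in WT vehicle. The groups were well apart, and the log2 fold change was -0.67 ± 0.31 (SE; 95% confidence interval -1.35 to 0.01). Top2a, the topoisomerase that untangles sister chromatids, had 2.03, 1.75 and 2.17 in WT IIAEK, against 2.37, 2.42 and 2.33 in WT vehicle (-0.39 ± 0.23, SE). Birc5, survivin, a subunit of the chromosomal passenger complex, had 3.77, 3.51 and 3.58 in WT IIAEK, against 3.92, 3.96 and 3.81 in WT vehicle (-0.28 ± 0.17, SE). In each of these 3 genes the vehicle arrays lay closer together than the IIAEK arrays.

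By role, all but Cdt1 of the 9 genes of origin licensing and the helicase had fold changes below 0, from -0.69 for Mcm5 to 0.26 for Cdt1. Mcm5 had 0.53, -0.26 and 0.86 in WT IIAEK, against 1.02, 0.78 and 1.40 in WT vehicle, and 1 IIAEK array lay inside the range of vehicle. Mcm2, another ring subunit, had -0.29, -0.65 and -0.43 in WT IIAEK, against 0.06, -0.38 and -0.13 in WT vehicle, with overlap. E2f1, the factor that switches replication genes on, had -1.59, -1.84 and -1.38 in WT IIAEK, against -1.25, -1.65 and -1.16 in WT vehicle, also with overlap. The 6 genes of G2/M control lay between -0.36 (Foxm1) and -0.05 (Ccnb2, a cyclin B). Cdk1, the kinase of mitotic entry, had -0.07, -0.12 and -0.17 in WT IIAEK, against 0.27, 0.24 and -0.20 in WT vehicle, so that WT vehicle 3 alone overlapped. Its cyclin Ccnb1 had 1.53, 1.42 and 1.36 in WT IIAEK, against 1.67, 1.64 and 1.32 in WT vehicle, with the same array overlapping. The 4 kinetochore and checkpoint genes lay between -0.18 (Bub1b) and -0.0043 (Bub1).

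Individual arrays bore on the size. Without WT IIAEK 2, 35 of 37 fold changes were still below 0, but the median was -0.13 (-0.15 over replication and -0.10 over mitosis genes), and without WT vehicle 1 it was -0.20 with 33 of 37 below 0. Within slide 1 the median was -0.26 (2 arrays against 2), and within slide 2 it was -0.17 (1 against 1; 27 of 37 below 0). Over the same arrays the stomach mucous score was -2.55, -3.23 and 4.24 in WT IIAEK, against 2.65, 2.58 and 2.92 in WT vehicle. The villus enterocyte score was 0.15, 0.33 and -0.15 in WT IIAEK, against -0.19, -0.12 and 0.06 in WT vehicle, and the crypt stem score was 0.04, -0.17 and -0.06, against 0.29, 0.11 and 0.07. The B-cell score was 0.38, -0.71 and -0.73 in WT IIAEK, against 2.60, 1.98 and -0.66 in WT vehicle. All 7 tested B-cell genes had a fold change below 0 (43.7% of all features; median -1.54). With the stomach and pancreas scores as covariates, 21 of 37 fold changes were below 0 and the median was -0.08, and 11 of 21 mitosis genes were below 0 (median -0.035). Rrm1 did not have an unadjusted p under 0.05 on the lower side by limma in this fit. The part of tissue content in the lower levels was not tested beyond this fit.

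**Figure D3:**
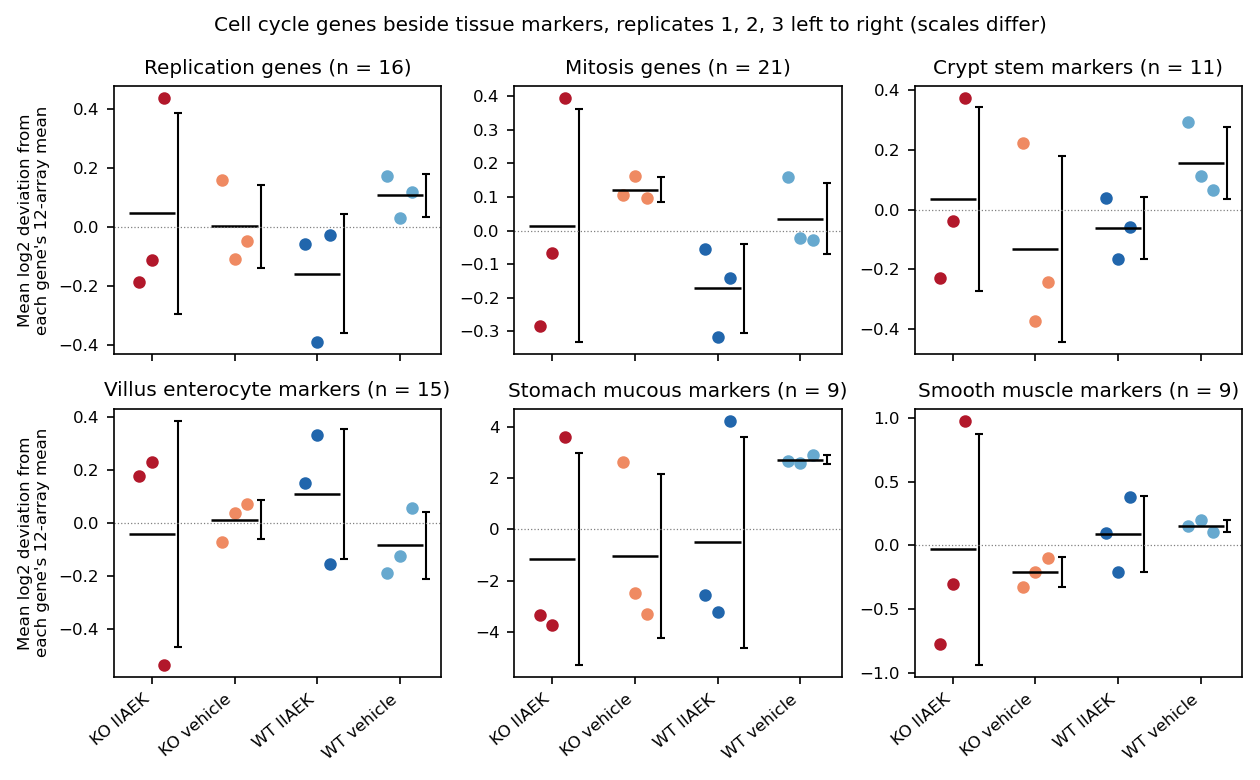
Array scores of the replication and mitosis genes beside those of 4 marker lists (points, replicates 1 to 3 left to right; line, group mean; bar, SD, n = 3; the scale differs between panels). The stomach mucous score is high on 6 arrays and low on 6, and KO IIAEK 3 has the lowest villus enterocyte score (-0.53) and the highest smooth muscle score (0.98).

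In knockout mice, the same comparison had no common direction. Fold changes under IIAEK were below 0 for 20 and above 0 for 17 of the 37 genes (50.8% and 49.2% of all features), with a median of -0.05, against -0.0032 over all features. The median was 0.07 for replication genes and -0.10 for mitosis genes. By limma 0 of 37 genes were called (0% of all features; smallest adjusted p 0.9999), and 1 gene had an unadjusted p under 0.05 on the lower side (1.1% of all features) and 0 on the higher side (0.816% of all features).

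This gene was again Rrm1, with levels of 1.346, 1.412 and 1.655 in KO IIAEK, against 1.961, 2.002 and 1.648 in KO vehicle. KO IIAEK 3 and KO vehicle 3 were nearly equal, and the other arrays were apart. The log2 fold change was -0.40 ± 0.15 (SE; 95% confidence interval -0.74 to -0.06), a ratio of 0.76, with adjusted p = 0.9999 by limma. Within slide 1 it was -0.58 in KO and -0.59 in WT mice, and within slide 2 it was -0.17 in KO and -0.18 in WT mice. The direction was thus the same in both genotypes and on both slides, while the size was smaller on slide 2. Of the KO arrays, slide 1 has 1 vehicle array and slide 2 has 1 IIAEK array. Each WT group has 1 array on slide 2.

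Ccnb1 and Cenpe had all KO IIAEK arrays below all KO vehicle arrays (2 of 37; 2.7% of all features), and no gene had them above (1.98% of all features). Ccnb1 had 1.54, 1.71 and 1.45 in KO IIAEK, against 1.87, 1.87 and 1.73 in KO vehicle (log2 fold change -0.26 ± 0.13, SE). Cenpe, a kinetochore motor, had 1.80, 1.84 and 1.74 in KO IIAEK, against 1.94, 1.96 and 1.93 in KO vehicle (-0.15 ± 0.15, SE). The other 2 probes of Ccnb1 gave -0.11 and 0.14, so its probes disagreed. All 6 genes of G2/M control had fold changes below 0, down to -0.28 for Cdk1, whose levels were 0.30, -0.13 and -0.12 in KO IIAEK, against 0.39, 0.24 and 0.27 in KO vehicle.

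Top2a had 1.82, 2.11 and 2.65 in KO IIAEK, against 2.42, 3.05 and 2.47 in KO vehicle (-0.45 ± 0.23, SE). For Tpx2 the levels were -1.58, -1.22 and -0.25 in KO IIAEK, against -0.65, -0.17 and -0.76 in KO vehicle (-0.49 ± 0.31, SE). In both genes KO IIAEK 3 lay inside the vehicle range and the other 2 IIAEK arrays lay below it. Licensing and helicase genes ran the other way on average, with 7 of 9 fold changes above 0, from -0.23 for Mcm6 to 0.33 for Mcm3. Cdt1 had 1.47, 1.68 and 2.12 in KO IIAEK, against 1.72, 1.43 and 1.43 in KO vehicle, a log2 fold change of 0.23 ± 0.18 (SE) with overlap.

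The knockout comparison turned on single arrays. Without KO IIAEK 3, 31 of 37 fold changes were below 0 and the median was -0.21, and without KO IIAEK 1 the median was 0.14. Leaving out KO IIAEK 3 gave Mcm5 a log2 fold change of -0.61, against 0.06 with all arrays. For Plk1 it gave -0.46, against 0.10 with all arrays. Within slide 1, where KO IIAEK 1 and 2 stand against KO vehicle 1 alone, the median was -0.30. KO vehicle 1 lay above the 12-array mean for 31 of 37 genes (51.7% of all features). Within slide 2, where KO IIAEK 3 stands alone against KO vehicle 2 and 3, the median was 0.37. The log2 fold changes there were 1.39 for Mcm3, 1.36 for Mcm5 and 1.23 for Plk1. On that slide every group but KO vehicle is a single array. The spread within groups thus came from KO vehicle 2 and 3 alone, and calls of that fit are not given.

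**Figure D4:**
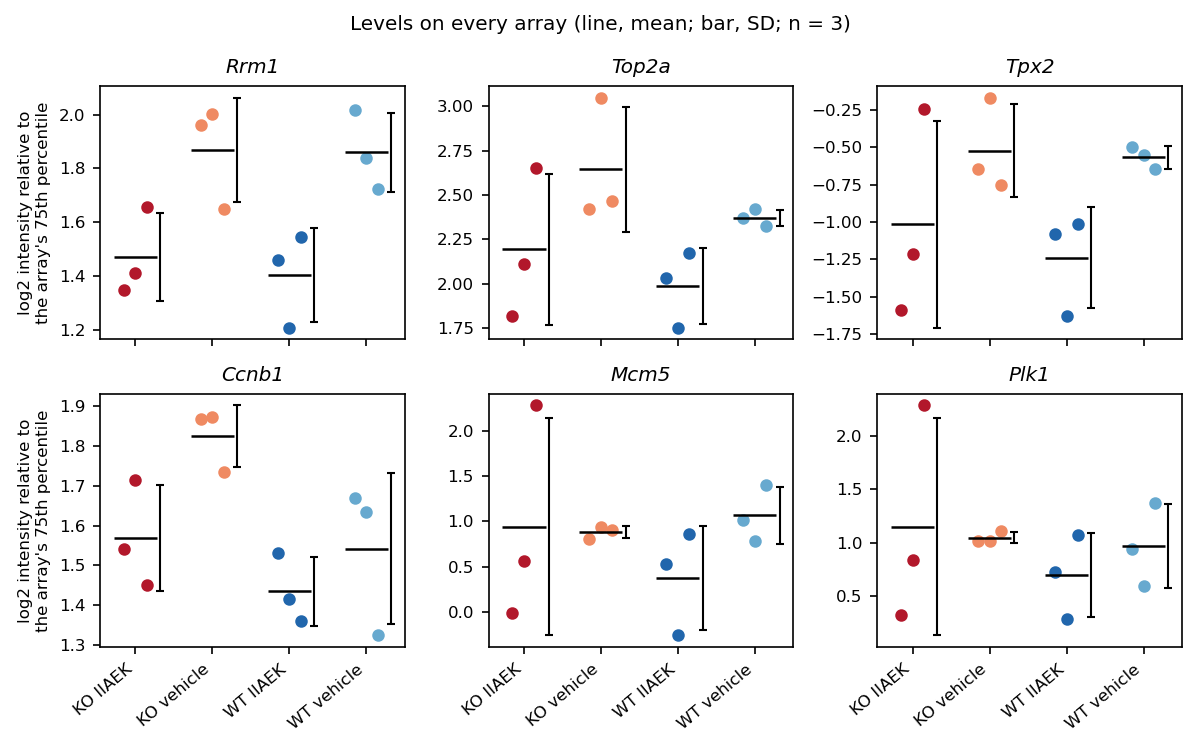
Levels of 6 cell cycle genes on every array (points, replicates 1 to 3 left to right; line, group mean; bar, SD, n = 3), as log2 intensity relative to the array's 75th percentile; each panel has its own scale. Rrm1 has lower means under IIAEK in both genotypes, with 1 KO pair of arrays nearly equal at 1.66 and 1.65, whereas Mcm5 and Plk1 have 1 high array, KO IIAEK 3, at 2.28 and 2.29.

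Averaged over the genotypes, IIAEK minus vehicle was below 0 for 33 of 37 genes (44.8% of all features) and above 0 for 4 (55.2%), with a median of -0.12 against 0.02 over all features. The average rests on the same arrays as the comparisons above. With the stomach and pancreas scores as covariates, 20 of 37 were below 0 (median -0.0053). The count below 0 was 24 without KO IIAEK 1 (median -0.064), 28 without WT IIAEK 2 (median -0.073) and 33 without KO IIAEK 3 (median -0.20). In limma's test 0 of 37 were called (0% of all features; smallest adjusted p 1), and 3 genes had an unadjusted p under 0.05 on the lower side (1.74% of all features) and 0 on the higher side (1.2%). These were Rrm1 (log2 fold change -0.43 ± 0.11, SE, 95% confidence interval -0.67 to -0.19, adjusted p = 1 by limma), Tpx2 (-0.58 ± 0.22, SE) and Top2a (-0.42 ± 0.16, SE). Without KO IIAEK 3 the values were -0.47 for Rrm1, -0.77 for Tpx2 and -0.53 for Top2a, and the smallest adjusted p was 0.5215 among these 3. Within slide 2 they were -0.17 for Rrm1, -0.07 for Tpx2 and -0.13 for Top2a. With the tissue scores as covariates, neither Tpx2 nor Top2a had an unadjusted p under 0.05 on the lower side by limma.

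Whether the response to IIAEK differed between genotypes was tested as KO effect minus WT effect. This difference was above 0 for 27 of 37 genes (44.1% of all features) and below 0 for 10 (55.9%), with a median of 0.18 against -0.04 over all features. It was above 0 for 15 of 16 replication genes (median 0.36) and for 12 of 21 mitosis genes (median 0.08). Its extremes were Mcm5 at 0.75 ± 0.68 (SE; 95% confidence interval -0.75 to 2.25) and Bub1, a spindle checkpoint kinase, at -0.20 ± 0.32 (SE). By limma 0 of 37 genes were called (0% of all features; smallest adjusted p 1), and 0 had an unadjusted p under 0.05 (0.59% of all features higher, 0.935% lower). Rrm1 had a difference of 0.06 ± 0.22 (SE; 95% confidence interval -0.42 to 0.54). Without KO IIAEK 3 the difference was above 0 for 18 of 37 genes and the median was -0.02.

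Knockout against wild type under vehicle gave replication and mitosis genes opposite signs on average, with no gene past the test. Of the 16 replication genes 14 had a fold change below 0 (median -0.10), and of the 21 mitosis genes 17 had one above 0 (median 0.07). Over all 37 genes 19 were above and 18 below 0 (54.6% and 45.4% of all features), with a median of 0.01 against 0.03 over all features. With limma 0 of 37 were called (0.00766% of all features; smallest adjusted p 0.993), and 0 had an unadjusted p under 0.05 (2.15% of all features higher, 1.71% lower). With slide as a block, 14 of 16 replication genes were still below 0 (median -0.18), but only 11 of 21 mitosis genes were above 0 (median 0.05). Slide 1 alone, with KO vehicle 1 against WT vehicle 1 and 2, gave 9 of 16 replication genes above 0. The fit with stomach and pancreas scores as covariates gave 12 of 16 replication and 20 of 21 mitosis genes above 0. All 7 tested B-cell genes had a fold change below 0 in the same comparison (median -1.17), and their part in it was not tested.

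For 3 of 37 genes all KO vehicle arrays lay above all WT vehicle arrays (8.5% of all features), and for 0 they lay below (5.87% of all features). Top2a had 2.42, 3.05 and 2.47 in KO vehicle, against 2.37, 2.42 and 2.33 in WT vehicle, with the nearest arrays almost equal (log2 fold change 0.27 ± 0.23, SE). Ube2c, the ubiquitin-conjugating enzyme of the anaphase-promoting complex, had 1.59, 1.80 and 1.78 in KO vehicle, against 1.52, 1.57 and 1.46 in WT vehicle (0.21 ± 0.17, SE). Ccnb1 had 1.87, 1.87 and 1.73 in KO vehicle, against 1.67, 1.64 and 1.32 in WT vehicle (0.28 ± 0.13, SE; 95% confidence interval -0.01 to 0.58). The other 2 probes of Ccnb1 gave -0.11 and -0.30, and the mean of its 3 probes -0.04, so the direction depended on the probe.

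The 3 members named by the smallest p besides these were as follows. Cdc25c, a phosphatase that activates Cdk1, had -0.58, -0.26 and -0.42 in KO vehicle, against -0.47, -0.81 and -0.81 in WT vehicle (0.27 ± 0.16, SE). For Cdk1 the levels were 0.39, 0.24 and 0.27 in KO vehicle, against 0.27, 0.24 and -0.20 in WT vehicle (0.19 ± 0.17, SE). Mcm4 had 2.30, 1.82 and 1.96 in KO vehicle, against 2.32, 2.15 and 2.19 in WT vehicle (-0.19 ± 0.16, SE). The groups overlapped in all 3 genes.

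Knockout against wild type under IIAEK gave fold changes above 0 for 32 of 37 genes (47.5% of all features) and below 0 for 5 (52.5%), with a median of 0.18 against -0.01 over all features. The median was 0.22 over replication genes (13 of 16 above 0) and 0.17 over mitosis genes (19 of 21 above 0). The limma test called 0 of 37 genes (0.00766% of all features; smallest adjusted p 1), 0 had an unadjusted p under 0.05 (0.414% of all features higher, 0.9% lower), and no gene had groups without overlap (1.65% of all features higher, 2.19% lower). Without KO IIAEK 3, 18 of 37 genes were above 0 and the median was -0.02.

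Of the 6 members with the smallest p in this comparison, all but Rrm2 had their highest level on KO IIAEK 3. Aurka had 0.91, 1.33 and 2.21 in KO IIAEK, against 1.16, 0.79 and 1.13 in WT IIAEK (log2 fold change 0.45 ± 0.26, SE). Mcm3, a ring subunit, had 1.74, 1.58 and 2.77 in KO IIAEK, against 1.75, 0.93 and 1.57 in WT IIAEK (0.61 ± 0.36, SE). E2f1 had -1.48, -1.59 and -0.66 in KO IIAEK, against -1.59, -1.84 and -1.38 in WT IIAEK (0.36 ± 0.25, SE). In these 3 genes the first 2 KO arrays lay within or near the WT range. Rrm2 had 3.13, 2.91 and 2.96 in KO IIAEK, against 2.45, 2.32 and 3.13 in WT IIAEK (0.37 ± 0.23, SE), and here the WT arrays were the uneven ones. Cenpa, the histone variant of centromeres, had 0.24, 0.34 and 0.73 in KO IIAEK, against 0.19, 0.30 and 0.29 in WT IIAEK (0.18 ± 0.14, SE). Mcm5 had -0.01, 0.56 and 2.28 in KO IIAEK, against 0.53, -0.26 and 0.86 in WT IIAEK; its log2 fold change was 0.57 ± 0.48 (SE) with all arrays and -0.10 without KO IIAEK 3.

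Averaged over treatments, knockout minus wild type was above 0 for 30 of 37 genes (52.3% of all features) and below 0 for 7 (47.7%), among them 20 of 21 mitosis genes, with a median of 0.07 against 0.01 over all features. No gene was called by limma (0 of 37; 0.0192% of all features; smallest adjusted p 0.9994), and 0 had an unadjusted p under 0.05 (1.37% of all features higher, 1.67% lower). Without KO IIAEK 3, 17 of 37 were above 0.

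**Figure D5:**
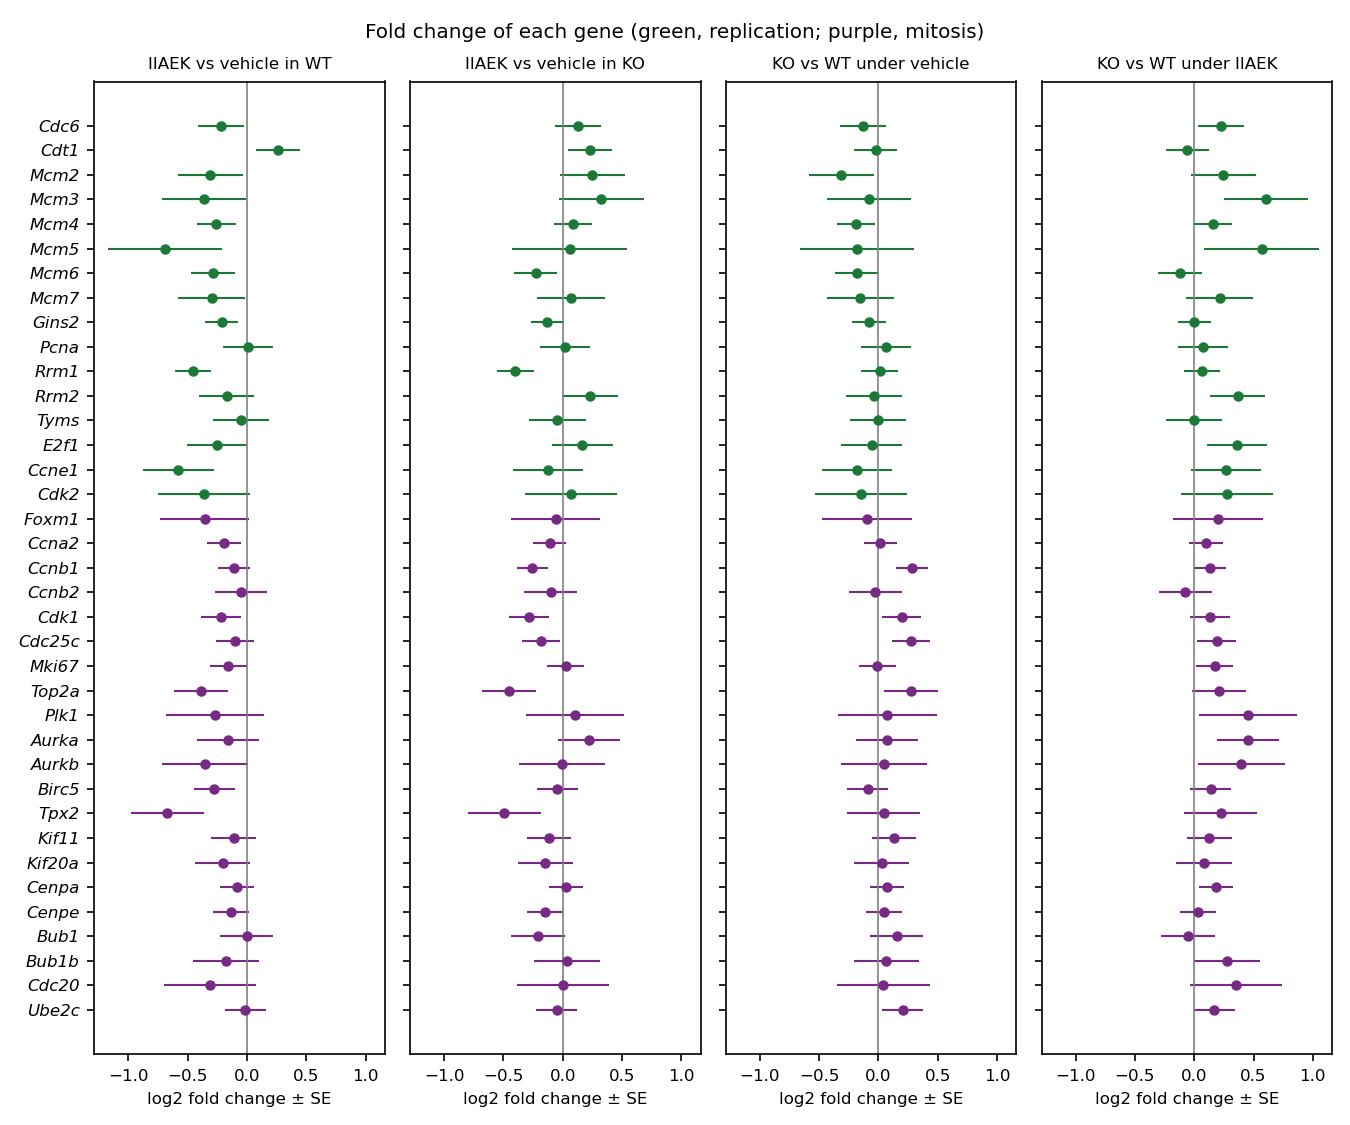
Log2 fold change of each of the 37 genes (point; bar, ± 1 SE from limma, 3 arrays per group) in the 4 comparisons between groups, with replication genes in green and mitosis genes in purple. In WT mice 35 of 37 points lie left of 0 under IIAEK, while in KO mice 20 lie left of it; no gene passed the adjusted test in any panel.

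Other genes of the same pathway, from lists written by name, ran close to the members in the counts of directions under IIAEK. Of 35 other replication genes that could be tested, 29 had a fold change below 0 under IIAEK in WT mice (median -0.16). Of 54 other mitosis genes 41 did (median -0.17), against 43.7% of all features. The limma test called 0 of either list (0% of all features). An unadjusted p under 0.05 was found for 2 and 3 of them, all lower (1.44% of all features). The smallest p in each list belonged to Cdc7, the kinase that fires origins (level -0.38 in WT IIAEK and 0.15 in WT vehicle, log2 fold change -0.53 ± 0.17, SE), and to Cks1b, a subunit of Cdk complexes (level 1.83 in WT IIAEK and 2.16 in WT vehicle, -0.32 ± 0.13, SE). In KO mice 19 of 35 and 28 of 54 were below 0 under IIAEK (50.8% of all features), and Cks1b had a log2 fold change of -0.34 ± 0.13 (SE). For KO against WT under vehicle, 20 of 35 and 30 of 54 were above 0 (54.6% of all features), with medians of 0.01 and 0.02. The opposite signs of the members were thus absent from these lists. On the score of the other mitosis genes the WT groups overlapped (WT IIAEK 1 at -0.01, WT vehicle 3 at -0.12). On that of the other replication genes they did not.

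Genes that drive or inhibit the cycle were listed too. In WT mice, of 10 testable G1 drivers 8 had a fold change below 0 under IIAEK (43.7% of all features; median -0.32), with Myc at -0.73 ± 0.25 (SE; adjusted p = 0.999 by limma). Of 25 testable cycle inhibitors 17 were above 0 (56.3% of all features; median 0.15) and 8 below it (43.7% of all features), down to -0.30 for Pkmyt1. The smallest p belonged to Cdkn1b, which encodes the Cdk inhibitor p27, at 0.42 ± 0.13 (SE; adjusted p = 0.999 by limma). Rb1, the retinoblastoma gene, came next at 0.41 ± 0.17 (SE). In KO mice 7 of 10 drivers were below 0 (50.8% of all features; median -0.14) and 15 of 25 inhibitors above it (49.2% of all features; median 0.06). The inhibitors ran from -0.38 for Cdkn1a to 0.67 for E2f4 there. In KO against WT under vehicle, 16 of 25 inhibitors were above 0 (54.6% of all features), with a median of 0.08. The highest was Cdkn2b, another Cdk inhibitor, with a mean level of 3.33 in KO vehicle and 2.64 in WT vehicle. Its log2 fold change was 0.69 ± 0.19 (SE; adjusted p = 0.993 by limma). Averaged over treatments it was 0.32 ± 0.13 (SE), and the KO minus WT difference in its IIAEK effect was -0.74 ± 0.27 (SE). None of these genes was called by limma in any of the 7 comparisons.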

How the data were processed

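Total RNA was labelled with Cy3, per the labels' protocols, and hybridised to 12 one-colour arrays. Scanner output deposited by the authors comes from Feature Extraction 10.7.3.1, per the file headers, and gives each spot a processed intensity, background-subtracted but not scaled between arrays. The authors' deposited value table holds log2 values; set against the scanner files (correlation at least 0.999996 on each array), they equal log2 processed intensity shifted by the 75th percentile and centred per probe, and were used as an alternative.

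Control spots (3671 of 62976) and flagged spots (22 of 56605 probes lost) were left out, each array's 75th percentile was subtracted on the log2 scale, and a probe was kept if well above background on every array of at least 1 group. The brightest probe stood for a gene; 32973 probes were named by accession through RefSeq (GRCm38.p6). The headers give an older build, so only RefSeq's own coordinates are printed. limma 3.58.1 in R 4.3.3 (lmFit, eBayes with intensity trend, 1 mean per group over 12 arrays, two-sided) was tested on simulated data. A gene is called where its adjusted p (Benjamini-Hochberg, over 26107 features) is under 0.05. The labels do not say that the samples are separate animals, and p-values measure only the spread between these samples. With 3 arrays a group, their number limits the precision; a member's standard error was 0.23 at the median between 2 groups.

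The members, lists and tests were chosen with earlier results of these data known. Named in each comparison of 2 groups are members called, those with an unadjusted p under 0.05 and the 6 with the smallest p; Mki67, Pcna, Mcm2, Cdk1, Ccnb1 and E2f1 are given per array. Members without overlap between groups, those extreme on KO IIAEK 3 and those at the ends of a role's range were named after their values were seen, and the roles were assigned then too. Alternatives were the background correction, scaling, filter, choice of probe, variance trend, slide, replicate block, tissue scores as covariates and leaving out each array.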

Additional observations from a re-analysis of the deposited data

How the results depend on the processing

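No alternative of those run changed a call, except the fit within slide 2 for IIAEK in KO mice. KO IIAEK is replicate 3 alone there, and the spread within groups came from KO vehicle 2 and 3 alone. The calls of that fit are therefore not given, and all other recounts of called members gave 0. Within slide 1, KO vehicle is replicate 1 alone. Under IIAEK in KO mice the median fold change was -0.30 (all members) and -0.33 (replication) within slide 1, and 0.37, 0.61 and 0.26 (all, replication, mitosis) within slide 2. The KO minus WT difference had medians of -0.0175 (all) and -0.0113 (replication) within slide 1, 0.38, 0.82 and 0.28 within slide 2, and 0.13 (replication) with tissue scores as covariates; leaving out 1 array gave -0.0234 to 0.27 (all) and 0.13 to 0.45 (replication), lowest without KO IIAEK 3. KO against WT under vehicle had medians of 0.21, 0.11 and 0.31 with the covariates. KO against WT under IIAEK had 0.48, 0.54 and 0.46 within slide 2, and -0.0185 to 0.30 (all) and -0.0118 to 0.32 (replication) on leaving out 1 array, again lowest without KO IIAEK 3. IIAEK averaged over genotypes had 0.18, 0.22 and 0.068 within slide 2 and -0.31 (replication) within slide 1, and KO averaged over treatments had 0.28 (all) within slide 2. Of the named genes, Ccnb1 turned to -0.044 in KO against WT under vehicle with the mean of its probes and Mcm4 to 0.073 within slide 1. Cdt1 turned to -0.14 within slide 1 and Tpx2 to 0.21 within slide 2 under IIAEK in KO mice. Mcm5 ranged from -0.10 to 1.05 on leaving out 1 array and Rrm2 turned to -0.17 within slide 2, both in KO against WT under IIAEK. The causes were not tested. The other 673 values of set results were medians that stayed within the spread between replicates, or unchanged counts of calls. The other 642 of single genes kept their sign. That spread was 0.195 log2 units over all members, near the size of the medians, so staying within it does not show a stable median. Within it, the WT median under IIAEK went from -0.22 to -0.08 with tissue scores as covariates. The KO median went from -0.05 to 0.14 without KO IIAEK 1.

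Replicate numbers were not taken to pair the samples, since not every pair with the same number correlated over 0.1 in its deviations: 11 of 18 did (r from -0.252 to 0.699), against 12 of 36 pairs with different numbers, and 7 of 12 arrays correlated best with their own number. All replicates 1 lay on slide 1 and all replicates 3 on slide 2. With the replicate block 0 members were called in each comparison. Scaling by the median in place of the 75th percentile moved the median of all features by at most 0.07 in size, in the KO minus WT difference (-0.07). The 3 arrays per group limit what can be seen: the median standard error of a member was 0.23 between 2 groups and 0.32 for the difference.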

Other observations

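Outside the cell cycle genes themselves, Prim2, a subunit of the DNA primase, stood out among the other replication genes by its genotype. Its mean level was -2.72 in KO IIAEK and -0.83 in WT IIAEK (log2 fold change -1.88 ± 0.54, SE, adjusted p = 1 by limma), and -1.67 in KO vehicle and -0.42 in WT vehicle (-1.25 ± 0.54, SE, adjusted p = 0.993 by limma). The 34 other genes of that list lay on both sides of 0 in both comparisons.

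Other cell type lists had these medians of log2 fold change under IIAEK. Paneth cell genes had 0.28 in KO and 0.03 in WT mice (5 tested), and goblet cell genes had -0.03 in KO and 0.07 in WT mice (7 tested). B-cell genes had 0.11 in KO and -1.54 in WT mice (7 tested). Plasma cell genes had -0.18 in KO and 0.25 in WT mice (6 tested), and T cell genes had -0.12 in KO and -0.10 in WT mice (12 tested). All 12 T cell genes had a fold change above 0 in KO vehicle against WT vehicle, against 54.6% of all features. Their median was 0.32, against 0.03 over all features. By limma 1 of them had an unadjusted p under 0.05 (2.15% of all features higher) and 0 were called (0.00766% of all features).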
